A study of Drosophila melanogaster with 20 samples.

Results

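The gut serine proteases described here are 30 of the 14081 genes measured, chosen by name: 16 Jonah proteases, 10 trypsins, and Ser6, Ser8, Ser12 and yip7. All 30 were found by gene identifier. A gene entered a comparison where 5 or more of its 10 libraries reached a normalised count of 10, and 29 members did so in each comparison. Ser12 was listed at 0 in 19 of 20 libraries and at 2.83 in the other one, and was not tested. RNA came from whole Drosophila larvae, 4 days old, raised at 25 °C on yeast-sugar-agar food, so gut transcripts were read against those of the rest of the animal. All groups share the wDah background, and each holds 5 libraries: control, and 3 genomically engineered lines with a changed gene for the mitochondrial carrier of S-adenosylmethionine (SAM). The genotypes are DmSAMC.I172G, named a mild mutant, DmSAMC.P223L, named a severe mutant, and a severe null mutant, DnSAMC.M1fs;M39*, called SAMC-null below.

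Serine proteases of this family are secreted into the gut lumen by cells of the midgut as inactive precursors and cut dietary protein into peptides. Trypsins cut after lysine or arginine, and the Jonah proteases are a separate family of the same class, first described from the larval gut. Many of the genes sit side by side in clusters of close relatives, and their transcripts are among the abundant ones of a feeding larva. In RNA of whole larvae, fewer midgut cells and less RNA per midgut cell cannot be told apart.

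Normalised counts of a library summed to between 32994074 and 36610401 over control and I172G, and to between 22092107 and 26077354 over the severe lines. The labels do not state that libraries of a group are separate cultures, so the p-values measure only the spread between these libraries. All lines share the same control libraries, and any other difference between the strains is confounded with the carrier's change. The carrier gene CG4743 stood at 125 ± 20.2 in control and 207 ± 24.6 in P223L, against 112 ± 12.8 in SAMC-null (n = 5, SD), so no group lacked its transcript and these levels do not check the labels. The 6 fat body marker genes, which include the larval serum proteins, held 10.8 to 12.1% of a control library and 0.000245 to 0.00143% in the severe lines, and the 3 salivary glue markers fell to at most 5.83e-05% there. In I172G, 3 of the 6 fat body markers and all 3 salivary markers rose against control, where 14.6% of all genes rose. Their shares of the library were 12.7 to 13.9% and 0.0557 to 0.177%, where the salivary share of control was 0.00721 to 0.0681%. These markers thus moved with each comparison of a line with control and with that of I172G and P223L, and their part in the results was not tested. Between the severe lines both lists were near 0, and 1 of the 9 genes reached the level needed for a test. All larvae had an age of 4 days. Whether the groups had reached the same larval stage was not tested, and a difference in stage would be confounded with the lines.

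In control larvae the proteases covered a wide range of levels. Per kilobase of exon, Jon65Aiv was highest at 241891 ± 17640 normalised counts, then Jon25Biii at 175603 ± 11421, Jon66Ci at 136496 ± 7694 and Jon99Cii at 122898 ± 12730 (SD, n = 5). The SDs of Jon66Ci and Jon99Cii overlap. The trypsin deltaTry came next at 74959 ± 5792, ahead of Jon99Ciii at 60032 ± 5844. Among all genes ranked per kilobase in control, 8 members were in the top 50 and 13 in the top 100. The lowest detected member was Ser8, at 40.7 per kilobase. Variation between libraries was smaller in SAMC-null, with a median coefficient of variation of 6.01% over the 29 members, than in control, with 15.3%. Over all genes tested, the median SE on the log2 scale was 0.0997 in SAMC-null against control. It was 0.104 in P223L against control, 0.117 in I172G against control and 0.0674 in P223L against SAMC-null. Each SE pools the groups compared, and spread over all genes was not computed for single groups. The largest coefficient of variation of a member in control was that of Jon74E, at 64.4%.

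Together the 30 genes held 3.04 to 3.32% of the normalised counts of a control library. They held 2.00 to 2.63% in I172G, 1.10 to 1.30% in P223L and 0.673 to 0.698% in SAMC-null, so that the ranges of the groups do not overlap. With the 6 fat body genes left out of the total, control stood at 3.61 ± 0.126% and SAMC-null at 0.689 ± 0.00985% (SD, n = 5). The 16 Jonah proteases summed to 856567 ± 31923 normalised counts in control and 620982 ± 66977 in I172G, against 187305 ± 9814 in P223L and 89942 ± 914 in SAMC-null. The 10 trypsins summed to 189702 ± 16966, 136622 ± 21341, 106751 ± 12717 and 59008 ± 1486 in the same order. Trypsins thus made up 17.5 ± 0.923% of the counts of the 30 genes in control and 17.2 ± 0.932% in I172G, against 34.4 ± 1.63% in P223L and 38.3 ± 0.802% in SAMC-null.

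**Figure D1:**
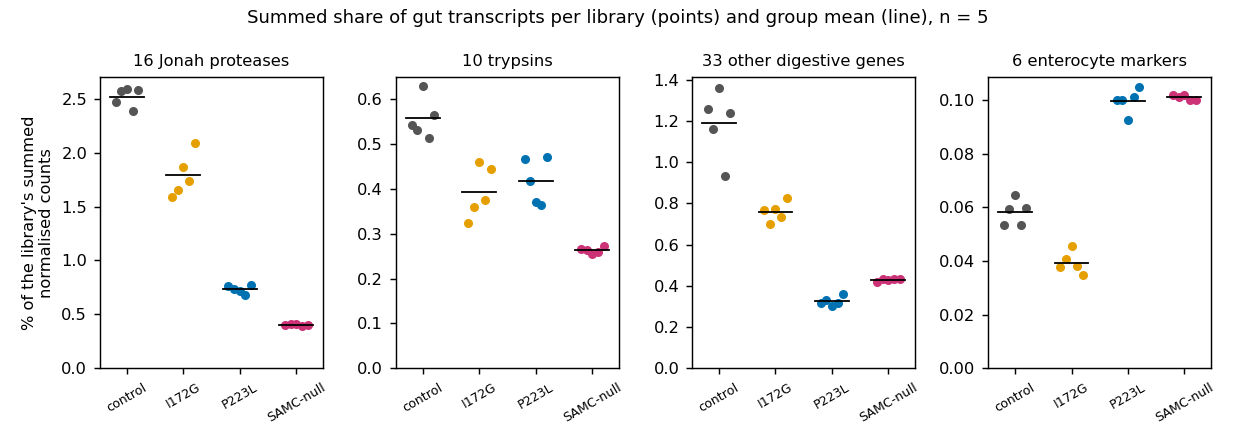
Share of each library's summed normalised counts (%, linear axes from 0) taken by the 16 Jonah proteases, the 10 trypsins, 33 other digestive genes and 6 enterocyte markers; points are libraries and lines are means of 5. Jonah proteases go from a mean of 2.52% in control to 0.402% in SAMC-null, while the enterocyte markers go from 0.0582% to 0.101%, beside library totals that were lower in SAMC-null.

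In I172G against control, 16 of 29 proteases fell, 0 rose and 13 were not called with limma (adjusted p under 0.05 over all genes tested). Over all 12253 genes tested, 17.6% fell and 14.6% rose. The median log2 fold change of the proteases was -0.40, against -0.03 over all genes, and 6 of them fell at least 2-fold, where 5.66% of all genes did. In 13 of the proteases every I172G library lay below every control library, as in 8% of all genes. Without control replicate 4, 15 fell and 2 rose, Jon65Aii and Jon99Fii, with adjusted p = 0.0443 and 0.0312. Fitting all 4 groups together called 18 lower and the same 2 higher, with adjusted p = 0.0455 and 0.0228. Beside the 0 increases with limma, 3 members had an increase at an unadjusted p under 0.05. By the authors' deposited adjusted p, 4 members fell and 0 rose. All members it called had changes beyond 1 on the log2 scale, so its 0 does not bear on smaller increases. No member rose at least 2-fold or had every library higher than control, where 1.8% and 10.1% of all genes did.

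The severe lines showed larger decreases. In P223L, 25 of 29 proteases fell and 2 rose, where 42.4% of all genes fell and 36.3% rose, and the median log2 fold change was -1.78 against -0.06 over all genes. In SAMC-null, 25 fell and 2 rose as well, where 43.5% of all genes fell and 38.2% rose, with a median of -2.79 against -0.06. Decreases of at least 2-fold were called for 22 members in P223L and 24 in SAMC-null, against 23.3% and 25.1% of all genes. Every library lay below every control library in 22 members for P223L and in 25 for SAMC-null, where 37.2% and 38.6% of all genes had that order. The same 25 genes fell in both severe lines, which share their controls, and 14 of these also fell in I172G. The share of all genes that fell in both severe lines, or in all 3 lines, was not counted. These overlaps therefore have no background to be read against. The increases were in alphaTry and Ser8 in both lines. All 16 Jonah proteases fell in each severe line, with log2 fold changes from -6.72 in Jon66Cii to -0.99 in Jon25Bii for P223L, and from -5.98 in Jon66Ci to -1.80 in Jon99Ci for SAMC-null.

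**Figure D2:**
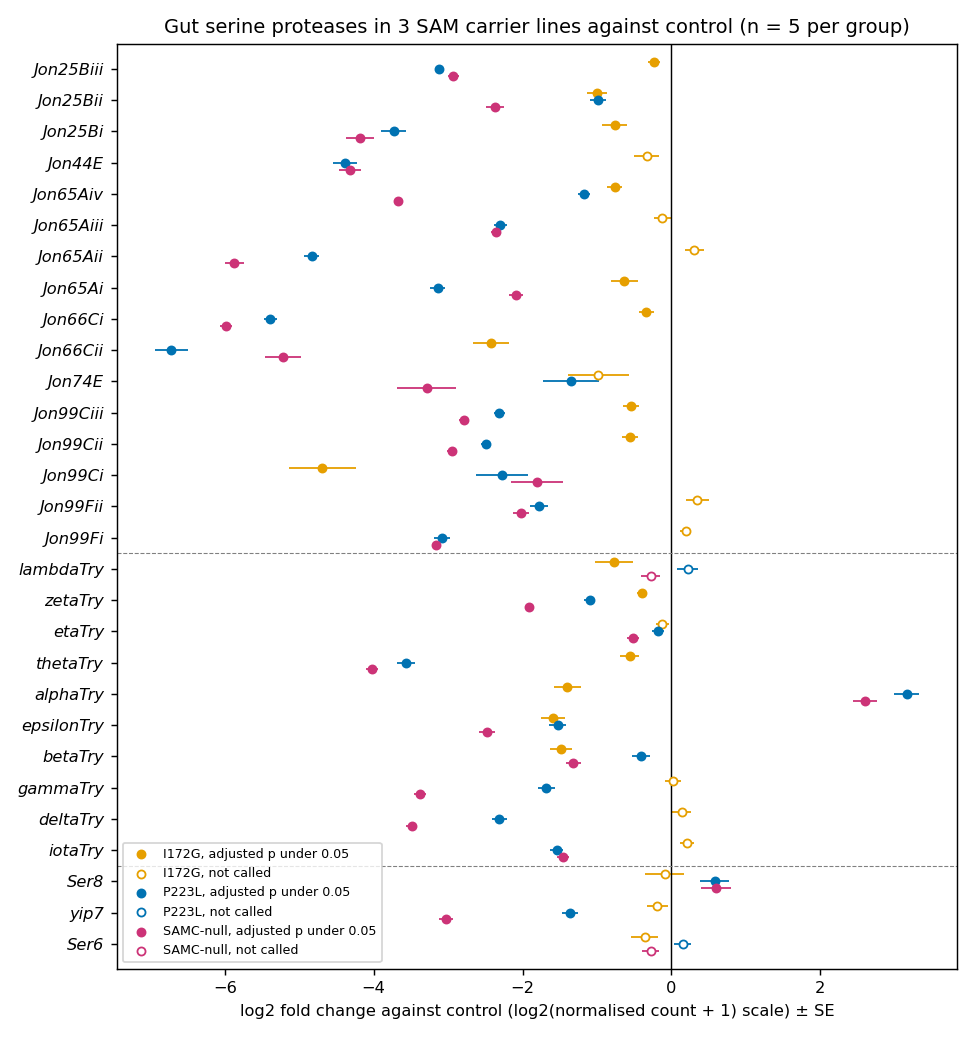
Log2 fold change of 29 proteases against control (x axis, log2(normalised count + 1) scale, ± SE, 5 libraries per group) in I172G, P223L and SAMC-null; filled points passed an adjusted p of 0.05, and dashed lines part Jonah proteases, trypsins and the others. Every Jonah protease lies left of 0 in both severe lines, and alphaTry lies at 3.16 and 2.60 there but at -1.40 in I172G.

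The 3 Jon25B genes lie within 5204 bases on chromosome 2L (4949941 to 4955144, Ensembl annotation of BDGP6, as for all positions here). Jon25Biii stood at 143939, 141574, 161035, 135740 and 143831 normalised counts in the control libraries and at 111267, 125463, 126461, 121413 and 135784 in I172G. It stood at 17016, 16544, 16463, 15973 and 17201 in P223L and at 19102, 17412, 21471, 19503 and 17897 in SAMC-null. All severe libraries lie far below all others, while the highest I172G library lies just above the lowest control. Against control the log2 fold change was -0.23 ± 0.08 in I172G (adjusted p = 0.0499), -3.12 ± 0.06 in P223L (adjusted p = 9.44e-13) and -2.93 ± 0.07 in SAMC-null (adjusted p = 3.58e-12). The I172G call was lost with 8 single libraries left out, 4 of them control, with adjusted p = 0.0757 to 0.112.

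The neighbour Jon25Bii behaved otherwise. It had 28889 ± 4702 normalised counts in control and 14411 ± 2360 in I172G, against 14471 ± 1247 in P223L and 5587 ± 792 in SAMC-null (n = 5, SD). I172G and P223L thus overlap, and each differed from control by a log2 fold change close to -1, at -1.0 ± 0.14 and -0.99 ± 0.11. The third gene, Jon25Bi, had 25908 ± 6968, 14808 ± 1002, 1901 ± 222 and 1399 ± 260 in the same order, with log2 fold changes of -0.76 ± 0.17, -3.73 ± 0.17 and -4.18 ± 0.19. In P223L the 3 neighbours therefore kept 11.5%, 50.1% and 7.34% of their control means.

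On chromosome 3L (6035216 to 6054443), yip7, another serine protease gene, and the 4 Jon65A genes lie within 19228 bases. Jon65Aiv, the highest of all members in control, stood at 226945, 235203, 196230, 208294 and 226677 in control and at 110370, 118834, 146328, 128738 and 143610 in I172G. It stood at 103113, 97707, 94522, 88759 and 99484 in P223L and at 17363, 17764, 16683, 16874 and 17302 in SAMC-null. The 4 groups form 4 steps with no overlap. The log2 fold change against control was -0.76 ± 0.10 in I172G (adjusted p = 0.000513), -1.18 ± 0.08 in P223L (adjusted p = 2.12e-08) and -3.67 ± 0.06 in SAMC-null (adjusted p = 2.16e-13). In P223L Jon65Aiv alone held 51.6 ± 0.333% of the counts of the 16 Jonah proteases, against 25.6 ± 2.09% in control and 19.1 ± 0.502% in SAMC-null.

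Jon65Aiii, the next gene, stood at 44689, 38689, 49811, 48183 and 45485 in control and at 32504, 38083, 44085, 46382 and 49495 in I172G. It stood at 10603, 10068, 8354, 7799 and 9239 in P223L and at 8811, 9560, 8296, 8823 and 8683 in SAMC-null. Control and I172G overlap, as do P223L and SAMC-null, and the step between the pairs was -2.30 ± 0.09 in P223L and -2.36 ± 0.07 in SAMC-null on the log2 scale. In I172G the difference of -0.12 ± 0.12 was not called (adjusted p = 0.456).

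Jon65Aii showed the strongest decrease of this cluster in the severe lines. It stood at 20292, 13620, 16832, 19864 and 15402 in control and at 18948, 19486, 19686, 20965 and 27143 in I172G. It stood at 649, 590, 629, 547 and 574 in P223L and at 269, 302, 235, 292 and 371 in SAMC-null. All I172G libraries lie within or above the control range, and the severe groups lie far below with no overlap between them. On the log2 scale the change was 0.31 ± 0.13 in I172G (adjusted p = 0.0859), -4.83 ± 0.10 in P223L (adjusted p = 2.16e-12) and -5.87 ± 0.13 in SAMC-null (adjusted p = 2.5e-12).

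Jon65Ai, 277 bases from Jon65Aii, stood at 15236, 18461, 17776, 12525 and 15422 in control and at 8419, 7201, 12535, 10076 and 14109 in I172G. It stood at 2108, 1705, 1749, 1669 and 1711 in P223L and at 4024, 3471, 3752, 3553 and 3723 in SAMC-null. Here every library of the null line lies above every P223L library, the reverse of Jon65Aii and Jon65Aiv, while Jon65Aiii overlaps. The log2 fold changes were -0.63 ± 0.18 (adjusted p = 0.0198), -3.14 ± 0.10 and -2.09 ± 0.09, and leaving out control replicate 2 ended the I172G call (adjusted p = 0.0503). At the other end of the cluster, yip7 had 38421 ± 5887 in control and 33799 ± 6155 in I172G, against 14948 ± 1829 in P223L and 4661 ± 202 in SAMC-null (n = 5, SD). Its log2 fold change was -1.36 ± 0.11 in P223L and -3.03 ± 0.09 in SAMC-null, both called, and -0.19 ± 0.14 in I172G, which was not (adjusted p = 0.3).

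The paired genes Jon66Ci and Jon66Cii lie 442 bases apart on chromosome 3L (8391540 to 8393649), and differed in I172G. Jon66Ci stood at 109243, 120040, 115016, 121119 and 106502 in control and at 75462, 86086, 102251, 85931 and 104111 in I172G. It stood at 3208, 2837, 2959, 2221 and 2491 in P223L and at 2150, 1884, 1619, 1647 and 1790 in SAMC-null. The severe lines kept 2.40% and 1.59% of the control mean, while every I172G library lay below every control by a small margin. These differences came to -0.34 ± 0.10 (adjusted p = 0.0223), -5.39 ± 0.09 (adjusted p = 4.94e-13) and -5.98 ± 0.08 (adjusted p = 6.48e-14) on the log2 scale. The I172G call was lost without control replicate 2 or I172G replicate 2 or 4, with adjusted p = 0.0519 to 0.0545.

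Jon66Cii stood at 8615, 9974, 21528, 10257 and 12198 in control, with replicate 3 apart from the rest, and at 1585, 1854, 2431, 2270 and 3214 in I172G. It stood at 127, 99.8, 129, 79.7 and 129 in P223L and at 370, 417, 222, 262 and 349 in SAMC-null. The 4 groups do not overlap, with P223L lowest. Log2 fold changes against control were -2.42 ± 0.24 in I172G (adjusted p = 9.42e-05), -6.72 ± 0.22 in P223L (adjusted p = 7.67e-11) and -5.22 ± 0.24 in SAMC-null (adjusted p = 8.13e-10). The ratio of Jon66Ci to Jon66Cii, per kilobase, was 10.0 ± 3.05 in control, higher at 40.9 ± 6.22 in I172G and 24.5 ± 3.71 in P223L, and 5.75 ± 1.05 in SAMC-null (n = 5, SD).

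All 3 genes at 99C on chromosome 3R (29922216 to 29926189) fell in each line. Jon99Cii and Jon99Ciii fell to similar degrees. Jon99Ci fell further than both in I172G and less than both in SAMC-null, and was close to them in P223L. Jon99Cii stood at 106790, 114528, 113198, 87220 and 107954 in control and at 58071, 72666, 75015, 70605 and 84914 in I172G. It stood at 18668, 18879, 19214, 18258 and 18771 in P223L and at 13734, 13193, 14104, 13752 and 13655 in SAMC-null. The groups do not overlap. Log2 fold changes were -0.56 ± 0.11 (adjusted p = 0.00433), -2.49 ± 0.07 (adjusted p = 2.86e-11) and -2.95 ± 0.07 (adjusted p = 4.62e-12).

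Jon99Ciii stood at 73226, 80572, 80816, 63024 and 74559 in control and at 41390, 52196, 55399, 47333 and 61157 in I172G. It stood at 15019, 14526, 15581, 14748 and 14652 in P223L and at 10983, 11010, 11020, 10240 and 10351 in SAMC-null. These values keep the same order of groups, with log2 fold changes of -0.54 ± 0.11, -2.31 ± 0.07 and -2.79 ± 0.07. The deposited tables give both genes the symbol Jon99Ciii, so reads may be split between close copies and the values of each are uncertain. Summed, they had -0.55 ± 0.11, -2.42 ± 0.07 and -2.88 ± 0.07.

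Jon99Ci, 610 bases away, stood at 5743, 3908, 5092, 3275 and 1129 in control and at 60.6, 102, 207, 127 and 218 in I172G. It stood at 721, 694, 633, 625 and 810 in P223L and at 957, 942, 990, 989 and 929 in SAMC-null. It was the member with the lowest share of its control level in I172G, 3.73%, and I172G lay below both severe lines in every library. The log2 fold changes were -4.69 ± 0.45 in I172G (adjusted p = 7.74e-05), -2.27 ± 0.35 in P223L (adjusted p = 5.98e-05) and -1.80 ± 0.35 in SAMC-null (adjusted p = 0.000386). With the next lowest I172G share at 18.1%, in Jon66Cii, these 2 genes stand below the other members in that line.

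The 99F pair and the single Jonah genes completed the family. Jon99Fi had 12645 ± 1025 normalised counts in control and 14433 ± 1551 in I172G, against 1514 ± 269 in P223L and 1411 ± 84.0 in SAMC-null (n = 5, SD). Jon99Fii, 1034 bases away, had 15110 ± 3149, 19108 ± 3410, 4332 ± 344 and 3653 ± 129. Both fell in the severe lines, by 3.08 and 1.78 on the log2 scale in P223L and by 3.16 and 2.02 in SAMC-null, so that their ratio per kilobase (Jon99Fii to Jon99Fi) went from 1.23 ± 0.289 in control to 3.00 ± 0.567 and 2.65 ± 0.11. Jon44E had 13720 ± 3421 in control and 10817 ± 1928 in I172G, against 645 ± 100 in P223L and 676 ± 89.3 in SAMC-null, the severe lines keeping 4.70% and 4.92%. The span of Jon44E shares 49 bases with that of CG8586 on the other strand, and the span of deltaTry shares 15 with that of CG13202. Whether these bases are exon in both genes was not checked, so a part of their reads may be uncertain.

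Jon74E had the highest coefficient of variation of the members in control. It stood at 3158, 2680, 11086, 5291 and 11979 in control and at 3255, 1819, 2660, 3070 and 4178 in I172G. It stood at 2790, 2352, 2109, 1634 and 2460 in P223L and at 579, 762, 395, 508 and 742 in SAMC-null. Control splits into high and low libraries that reach into the I172G and P223L ranges, and only SAMC-null lies clear of it. The log2 fold change was -0.98 ± 0.41 in I172G (adjusted p = 0.0898), -1.35 ± 0.38 in P223L (adjusted p = 0.00616) and -3.29 ± 0.40 in SAMC-null (adjusted p = 6.96e-06). The I172G value was called without control replicate 2, at -1.25 (adjusted p = 0.0405), and at an unchanged -0.98 with all 4 groups in 1 fit (adjusted p = 0.0271) or with a block for replicate number (adjusted p = 0.0448).

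**Figure D3:**
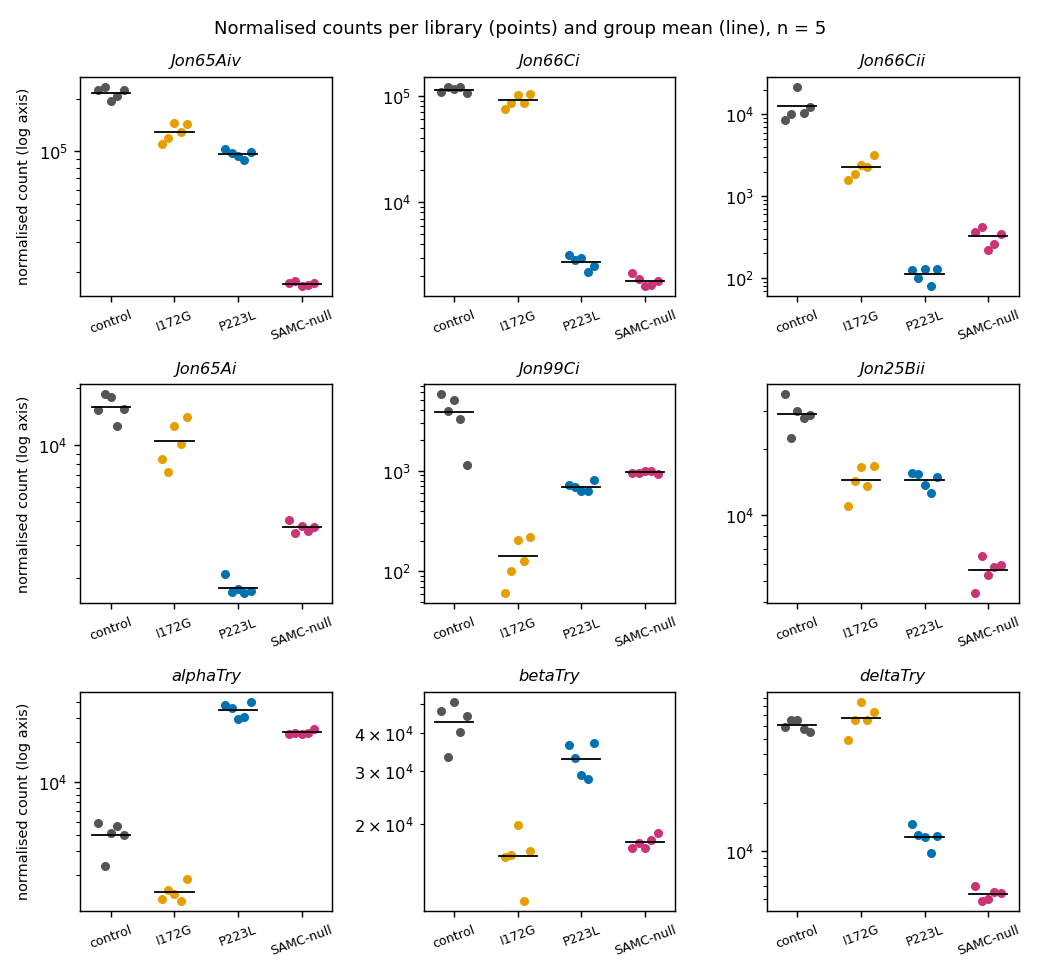
Normalised counts (log axis) of 9 proteases in each of 5 libraries per group, with the group mean as a line. Jon65Aiv falls in 4 steps to 16683 to 17764 in SAMC-null, Jon99Ci is lowest in I172G, and alphaTry is at 22991 or more in every severe library against at most 4906 in control.

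The 10 trypsins lie within 20698 bases on chromosome 2R (11336840 to 11357537), and moved in different directions. In I172G 6 fell and 4 were not called, while in each severe line 8 fell, alphaTry rose and lambdaTry was not called. The gene alphaTry stood at 4906, 2315, 4095, 4636 and 3998 in control and at 1307, 1530, 1433, 1279 and 1851 in I172G. It stood at 37700, 35617, 29843, 30828 and 40065 in P223L and at 23038, 23271, 22991, 23251 and 25020 in SAMC-null. I172G lies below control and both severe lines lie above it, without overlap. The log2 fold changes were -1.40 ± 0.18 in I172G (adjusted p = 0.000505), 3.16 ± 0.17 in P223L (adjusted p = 5.35e-09) and 2.60 ± 0.16 in SAMC-null (adjusted p = 1.45e-08), or 8.95-fold and 6.08-fold higher in the severe lines.

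The gene epsilonTry lies 117 bases beyond alphaTry, and betaTry 258 bases beyond epsilonTry. The gene betaTry stood at 47487, 33397, 50878, 40309 and 45592 in control and at 15441, 15775, 19752, 11100 and 16220 in I172G. It stood at 36360, 32912, 28935, 28236 and 36945 in P223L and at 16561, 17256, 16536, 17611 and 18613 in SAMC-null. P223L overlaps control, while I172G and SAMC-null lie in a common low range. Log2 fold changes were -1.48 ± 0.15 (adjusted p = 9.42e-05), -0.41 ± 0.12 (adjusted p = 0.00657) and -1.32 ± 0.10 (adjusted p = 7.61e-08). The gene epsilonTry fell in all 3 lines, from 41006 ± 8037 in control to 13692 ± 2959 in I172G, then 14056 ± 1645 in P223L and 7230 ± 178 in SAMC-null (n = 5, SD). In I172G these 3 neighbours, alphaTry, epsilonTry and betaTry, were the trypsins with the lowest share of their control means, at 37.1%, 33.4% and 36.0%.

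The trypsins gammaTry and deltaTry, further along the chromosome, followed another pattern. The gene deltaTry, the highest trypsin of control, stood at 59408, 65144, 65962, 57992 and 55077 in control and at 49325, 65391, 85432, 65159 and 73693 in I172G. It stood at 14602, 12621, 12215, 9704 and 12288 in P223L and at 6031, 4893, 5039, 5574 and 5440 in SAMC-null. I172G surrounds control, and both severe lines are far below. The log2 fold change was 0.14 ± 0.13 in I172G (adjusted p = 0.424), -2.31 ± 0.10 in P223L (adjusted p = 4.47e-10) and -3.49 ± 0.07 in SAMC-null (adjusted p = 1.05e-12). The gene gammaTry had 28275 ± 2641 in control and 28764 ± 4277 in I172G, against 8916 ± 1701 in P223L and 2714 ± 316 in SAMC-null, with log2 fold changes of 0.02 ± 0.11, -1.68 ± 0.11 and -3.38 ± 0.08. The deposited tables give gammaTry, deltaTry and CG30031 a single symbol, so that reads may be split between close copies. CG30031 had 8248 ± 1292, 8824 ± 3068, 2753 ± 916 and 376 ± 46.3, and the 3 genes summed had 0.10 ± 0.12, -2.03 ± 0.09 and -3.52 ± 0.07.

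The less abundant trypsins fell to very unequal degrees. The gene thetaTry went from 6377 ± 726 in control to 4357 ± 802 in I172G, then 542 ± 106 in P223L and 392 ± 28.3 in SAMC-null, passing the test in all 3 lines (SD, n = 5). The gene zetaTry, at 3058 ± 204 in control, kept 76.0%, 46.8% and 26.6% of that level, and also fell in all 3 lines. The gene iotaTry had 1100 ± 134, 1273 ± 168, 375 ± 25.2 and 398 ± 19.0, with decreases of 1.54 and 1.46 on the log2 scale in P223L and SAMC-null. The gene etaTry had 872 ± 102, 801 ± 79.3, 766 ± 33.1 and 611 ± 32.6, in each severe line the smallest called decrease of any trypsin. Its P223L call (log2 fold change -0.18 ± 0.08, adjusted p = 0.0458) was lost without control replicate 1, 4 or 5 or any 1 of the P223L libraries, with adjusted p = 0.0584 to 0.108. The gene lambdaTry stood at 553, 792, 664, 934 and 929 in control and at 372, 615, 657, 475 and 242 in I172G. It stood at 1034, 927, 764, 785 and 944 in P223L and at 705, 640, 607, 625 and 551 in SAMC-null. Its group means were 775 ± 166, 472 ± 171, 891 ± 114 and 626 ± 55.9. Its I172G call (-0.77 ± 0.26, adjusted p = 0.0394) was lost without control replicate 2, 3, 4 or 5 or I172G replicate 1, 4 or 5, with adjusted p = 0.0572 to 0.0878. In SAMC-null its difference was called without control replicate 1 or 3, at -0.40 and -0.33 (adjusted p = 0.00535 and 0.0488).

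The make-up of trypsin transcripts changed accordingly. In control, deltaTry held 32.1 ± 2.98% of the counts of the 10 trypsins and alphaTry 2.11 ± 0.547%. In I172G, deltaTry held 49.4 ± 2.20% and alphaTry 1.09 ± 0.160%. In P223L, alphaTry held 32.6 ± 1.43% and deltaTry 11.5 ± 0.987%, and in SAMC-null they held 39.8 ± 0.791% and 9.14 ± 0.703% (SD, n = 5). Per kilobase, alphaTry over deltaTry was 0.0335 to 0.0778 in the control libraries, 0.0158 to 0.0249 in I172G, 2.30 to 3.07 in P223L and 3.60 to 4.48 in SAMC-null. Reads of deltaTry may be split with gammaTry and CG30031, so its shares and ratios are uncertain, and CG30031 is not in the total.

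**Figure D4:**
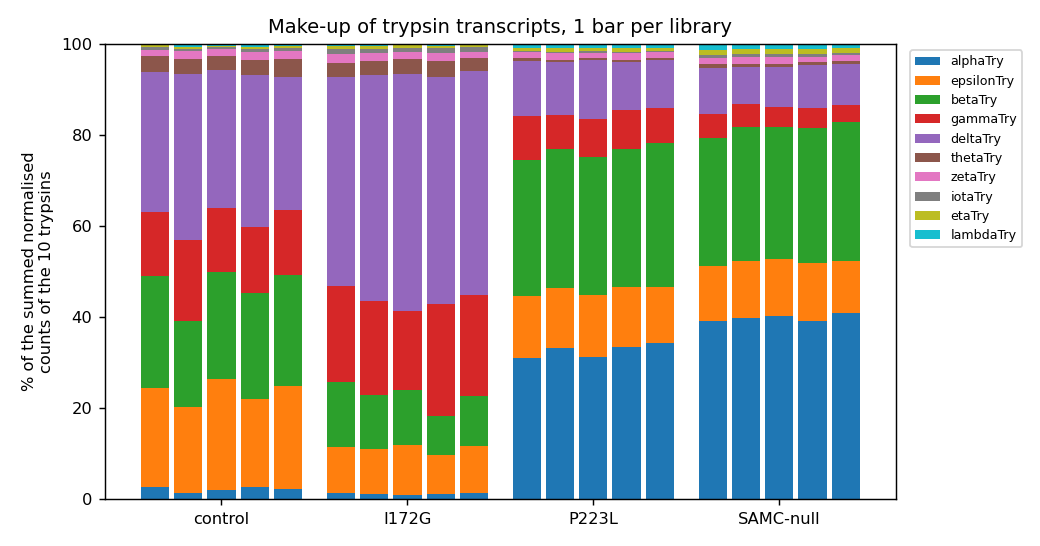
Share of each of 10 trypsins (%, stacked to 100) in their summed normalised counts, 1 bar per library and 5 per group. In control and I172G deltaTry takes the widest band, at 32.1% and 49.4% on average, and in the severe lines alphaTry does, at 32.6% and 39.8%.

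Ser6 and Ser8, 2 more serine protease genes, had the lowest control means of the tested members, at 527 ± 117 and 34.2 ± 8.74 (n = 5, SD). Ser8 stood at 21.7, 44.7, 38.6, 30 and 35.8 in control and at 25.1, 32.2, 22.6, 32.8 and 48.4 in I172G. It stood at 51.2, 52.7, 52.9, 53.5 and 41.1 in P223L and at 52.0, 59.7, 56.2, 43.8 and 43.9 in SAMC-null. Both severe groups overlap control at their low ends, and passed the test at 0.58 ± 0.20 (adjusted p = 0.0182) and 0.60 ± 0.20 (adjusted p = 0.0154). All 839 bases of Ser8 lie within the span of ATP8A on the opposite strand, from its start to its end, introns included. ATP8A had 2229 ± 96.9 in control, 2645 ± 101 in P223L and 3022 ± 71.0 in SAMC-null. Whether Ser8 overlaps exons of ATP8A was not checked, so it is not known whether the genes could share reads. Ser6 stood at 443, 476, 474, 731 and 513 in control and at 407, 514, 464, 403 and 273 in I172G. It stood at 656, 611, 516, 555 and 558 in P223L and at 473, 405, 452, 423 and 392 in SAMC-null. Each line overlaps control, whose replicate 4 is the highest library of all, while every P223L library lies above every I172G and SAMC-null library. No line was called against control (log2 fold changes -0.36 ± 0.18, 0.15 ± 0.12 and -0.28 ± 0.12). Without control replicate 4 the P223L value was called at 0.28 (adjusted p = 0.00614), and the SAMC-null value was called without control replicate 1 or 3 or SAMC-null replicate 1 (adjusted p = 0.0290 to 0.0470).

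The severe lines were then compared with each other. In P223L against SAMC-null, 20 of 29 proteases were higher and 4 lower, where 22.4% of all 11168 genes were higher and 25.1% lower, and the median log2 fold change was 0.45 against -0.02 over all genes. Of the 10 trypsins 9 were higher in P223L and iotaTry was not called, and of the 16 Jonah proteases 9 were higher and 4 lower. The largest differences were in Jon65Aiv, at 2.49 ± 0.04 (adjusted p = 1.28e-15, 5.62-fold), and Jon74E, at 1.94 ± 0.16 (adjusted p = 1.36e-07). The genes gammaTry at 1.70 ± 0.10, yip7 at 1.67 ± 0.07 and Jon25Bii at 1.38 ± 0.09 followed. Every P223L library was above every SAMC-null library in these 5 genes.

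The 4 genes lower in P223L than in SAMC-null were Jon66Cii at -1.5 ± 0.17 (adjusted p = 3.44e-06), Jon65Ai at -1.05 ± 0.06 (adjusted p = 1.52e-09), Jon99Ci at -0.47 ± 0.06 and Jon25Biii at -0.19 ± 0.05. Each has a cluster neighbour that was higher in P223L: Jon66Ci at 0.59 ± 0.09, Jon65Aii at 1.03 ± 0.10, Jon99Cii at 0.45 ± 0.03 and Jon25Bii. Of all 29 members tested 20 were higher, and how many others have such a neighbour was not counted. Differences of at least 2-fold were called for 7 genes higher and 2 lower, against 2.35% and 2.06% of all genes. With all 4 groups in 1 fit, Jon99Ci, Jon99Fii and lambdaTry lost their calls, with adjusted p = 0.313, 0.115 and 0.0609. Jon44E, Jon65Aiii, Jon99Fi, iotaTry and Ser8 did not pass the test, with log2 fold changes from -0.08 ± 0.06 to 0.09 ± 0.09.

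**Figure D5:**
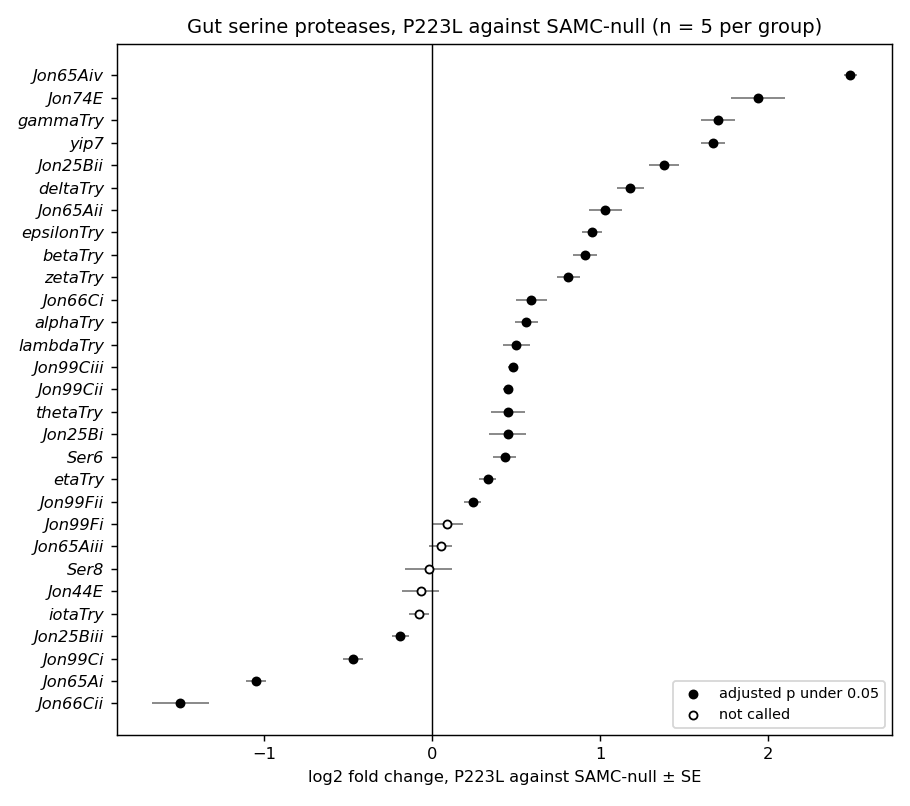
Log2 fold change of 29 proteases in P223L against SAMC-null (x axis, ± SE, 5 libraries per group), sorted; filled points passed an adjusted p of 0.05. The points run from -1.5 in Jon66Cii to 2.49 in Jon65Aiv, with 20 called to the right of 0 and 4 to the left.

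Set directly against P223L, I172G had 19 of 29 proteases higher and 6 lower, where 42.9% of all 12029 genes were higher and 38% lower, and the median log2 fold change was 1.75 against 0.05. The largest differences were in Jon65Aii, at 5.14 ± 0.09 (adjusted p = 2.74e-13), and Jon66Ci, at 5.05 ± 0.11 (adjusted p = 1.07e-12). The genes lower in I172G than in P223L were alphaTry at -4.56 ± 0.11 (adjusted p = 2.16e-12), Jon99Ci at -2.42 ± 0.29 (adjusted p = 4.83e-06), betaTry at -1.08 ± 0.13, lambdaTry at -0.99 ± 0.23, Ser8 at -0.67 ± 0.20 and Ser6 at -0.52 ± 0.14. For Jon25Bii, epsilonTry, etaTry and Jon74E the lines did not differ by the test, with log2 fold changes from -0.06 ± 0.13 to 0.37 ± 0.19. Without I172G replicate 2, Jon74E was called at 0.54 (adjusted p = 0.00653).

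Other digestive genes of the gut, a list of 33 amylases, maltases, lipases, lysozymes, mannosidases and aspartic proteases, also moved both ways. In I172G 14 of 33 fell and 6 rose (median log2 fold change -0.57), in P223L 23 of 31 fell and 8 rose (median -1.64), and in SAMC-null 21 of 31 fell and 7 rose (median -1.61). Of all genes 17.6%, 42.4% and 43.5% fell in these lines, and 14.6%, 36.3% and 38.2% rose. The lipase gene mag, at 111708 ± 5792 normalised counts in control, fell to 64727 ± 5554 in I172G, and further to 4517 ± 359 in P223L and 5485 ± 476 in SAMC-null (n = 5, SD). The maltase Mal-A3 had a log2 fold change of -2.07 ± 0.16 in I172G, and the mannosidase LManIV one of -6.87 ± 0.24 in P223L. Bace, an aspartic protease, fell in I172G with a log2 fold change of -3.68 ± 0.39 and rose in the severe lines, by 3.4 in P223L and 3.6 in SAMC-null, and the lysozyme LysX by 3.07 and 5.38. In P223L against SAMC-null, 18 of 31 of these genes were lower and 4 higher (median -0.27), where the proteases had 4 lower and 20 higher. Of all genes 25.1% were lower and 22.4% higher in that comparison.

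Serine proteases outside digestion were a list of 15 genes, of which 14 were analysed here. In I172G 1 of 12 fell and 2 rose, in P223L 5 of 12 fell and 3 rose (median -0.25), and in SAMC-null 6 of 13 fell and 5 rose (median 0.19). Of all genes 17.6%, 42.4% and 43.5% fell in these lines, and 14.6%, 36.3% and 38.2% rose. The decreases of this list in the severe lines were thus about as frequent as over all genes. SPE and grass, which act in the Toll pathway of immunity, had log2 fold changes of -1.86 ± 0.14 and -1.66 ± 0.08 in P223L, and modSP of the same pathway rose by 0.69 ± 0.05.

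Transcription factors and signals of the midgut and of digestive enzyme genes mostly rose in the severe lines. Of 12 tested, 3 rose and 1 fell in I172G, 11 rose and 1 was not called in P223L, and 10 rose and 1 fell in SAMC-null. Over all genes 14.6%, 36.3% and 38.2% rose in the same order, and 17.6%, 42.4% and 43.5% fell. GATAe, a GATA factor of the midgut, had 894 ± 55.1 normalised counts in control and 744 ± 64.2 in I172G, against 1434 ± 74.4 in P223L and 1351 ± 120 in SAMC-null (n = 5, SD). Its log2 fold changes were -0.27 ± 0.07 (adjusted p = 0.0171), 0.68 ± 0.06 (adjusted p = 2.07e-07) and 0.59 ± 0.07 (adjusted p = 4.3e-06). The TGF-beta ligand gene daw rose by 0.99 ± 0.24 in I172G, and sug, a sugar-responsive zinc finger factor, by 1.54 ± 0.48. In P223L sug was higher than in SAMC-null by 1.5 ± 0.08.

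Markers of midgut cells were measured beside the proteases. The 6 enterocyte markers held 0.0535 to 0.0646% of a control library and 0.0348 to 0.0456% in I172G, against 0.0924 to 0.105% in P223L and 0.1 to 0.102% in SAMC-null. As normalised counts they summed to 19784 ± 1545 in control and 13701 ± 1824 in I172G, against 25468 ± 947 in P223L and 22637 ± 201 in SAMC-null (n = 5, SD), smaller differences than in the shares because the totals of the severe libraries were lower. The lowest group mean of any of them was 454, of nub in I172G. In I172G 4 of 6 fell and 2 were not called, with Npc1b, a sterol uptake gene, at -1.35 ± 0.16 (adjusted p = 0.000277) and mex1 not called at -0.04 ± 0.11. In P223L 5 of 6 rose and Npc1b was not called, and in SAMC-null 3 rose and 3 were not called, with nub at 2.02 ± 0.10 and 2.17 ± 0.10 and mex1 at 1.36 ± 0.10 and 1.23 ± 0.09. The brush border myosin gene Myo61F had 6952 ± 267 in control and 5827 ± 815 in I172G, against 8249 ± 323 in P223L and 6693 ± 68.9 in SAMC-null. Of 5 enteroendocrine markers 4 rose in P223L and 5 in SAMC-null, and both copper cell markers rose in both lines. The midgut progenitor list had 1 gene tested, which was called in neither line, with log2 fold changes of -0.23 and -0.06. Over all genes 36.3% rose in P223L and 38.2% in SAMC-null, and 17.6% fell in I172G. GATAe and nub are on both this list and that of transcription factors, and nub is also expressed outside the gut. The proteases' decreases in the severe lines thus stood beside enterocyte markers of which none was called lower with limma or had a decrease at an unadjusted p under 0.05, and those in I172G beside 4 that fell. The part of cell number in either was not tested.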

How the data were processed

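Ribosomal RNA-depleted total RNA of whole larvae was sequenced as 75-base read pairs, per the labels' protocols. Tools were Salmon 0.11.3 and DESeq2 1.26.0, and the build BDGP6, per the submitters' processing notes. The deposited values are a signal per gene and library, normalised read counts. The deposited tables also hold the authors' mean, log2 fold change, its error, a score (test statistic and weight) and p-values, raw and adjusted. Control columns were equal in the 3 tables within 0.005. Of low values above 0, 52.8 to 81% per library lay within 0.1 of a multiple of the most frequent low value, so they were not turned into counts. That value gives about 23.5 to 35.2 M reads per library, while the labels state 3 M.

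Genes were matched by identifier to the Ensembl release 115 annotation of BDGP6 for symbols, coordinates and exon length. Whether this is the annotation the authors used is not given in the sources used here. Comparisons were run with limma 3.58.1 (R 4.3.3) on log2(value + 1), letting the variance follow the mean level, 5 libraries per group, two-sided, without further scaling, adjusted by Benjamini-Hochberg over all genes tested. Fold changes are on that scale. The fit was tested on simulated data. Every member may be named. Values by library were given for the 8 with the highest mean, the 2 largest called changes each way per comparison, and those called against the majority, and list genes for the smallest adjusted p. Members and lists were chosen with earlier results of these data known. Bace, LysX, mex1 and Myo61F fall outside that rule and were chosen after their values were seen. Alternatives were pseudocounts of 0.5 and 4, no filter, a filter of 50, median-ratio rescaling, single libraries left out, replicate number as a block, 1 fit of all 4 groups, limma's treat, the authors' adjusted p and, added after seeing the data, summed copies that share a symbol. Figures and tables used matplotlib 3.10.9, numpy 2.4.6 and pandas 2.3.3 under Python 3.11.15.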

Additional observations from a re-analysis of the deposited data

Results flagged for a closer look

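In each group of 5 libraries, the highest or lowest value of a protease was compared with its nearest neighbour, relative to the range of the group (Dixon's critical value 0.71). Of 116 groups of 29 proteases, 11 stood out, where chance gives about 1 in 20. In control, Jon66Cii in replicate 3 was at 21528 with the next library at 12198, Jon99Cii in replicate 4 at 87220 below 106790, Jon99Fi in replicate 5 at 14414 above 12478, and Ser6 in replicate 4 at 731 above 513. In I172G, Jon65Aii in replicate 5 was at 27143 above 20965. In P223L, replicate 1 was highest for thetaTry (727 above 524), gammaTry (11854 above 8924) and Jon65Ai (2108 above 1749), while etaTry in replicate 3 was at 708 below 774 and Ser8 in replicate 5 at 41.1 below 51.2. In SAMC-null, alphaTry in replicate 5 was at 25020 above 23271. All values are normalised counts.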

How the results depend on the processing

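Under the other settings run, no member's call changed direction. When limma's treat asked for changes beyond 1 on the log2 scale, the members called were 2 lower and 0 higher in I172G, 19 lower and 1 higher in P223L, 23 lower and 1 higher in SAMC-null, 0 lower and 5 higher in P223L against SAMC-null, and 2 lower and 16 higher in I172G against P223L. By the adjusted p of the authors' deposited table, 4 were lower and 0 higher in I172G, 19 lower and 1 higher in P223L, and 23 lower and 1 higher in SAMC-null. That table gives an adjusted p of 1 to most members with a log2 fold change within 1 of 0, and the null value it tested is not given in the sources used here. With the filter of 50, which leaves Ser8 out, 1 was higher in P223L and 1 in SAMC-null, beside 25 lower in each. With all 4 groups in 1 fit, 2 were higher in I172G. With single libraries left out, members called lower and higher were 13 to 15 and 0 to 2 in I172G (2 higher without control replicate 4), 24 to 25 and 2 to 3 in P223L, 25 to 27 and 2 in SAMC-null, 4 and 20 in P223L against SAMC-null, and 6 and 19 to 20 in I172G against P223L. Replicate numbers did not pair the samples: same-numbered libraries of I172G and control had correlations of -0.24 to 0.03. With replicate number as a block, 14 were lower and 0 higher in I172G, and 25 lower and 2 higher in each severe line. Summed copies lower the counts by construction, and merging members with near-identical proteins was not run. The cause of the other shifts was not tested. Values near a count of 30, as in Ser8, carry few reads.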
